A study of Hordeum vulgare with 18 samples.

Results

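Leaves of highland barley grown with all of their fertilizer nitrogen from organic fertilizer were compared with leaves of control plants given chemical fertilizer alone, over every gene with enough counts. The compared libraries were the 3 leaf libraries at 100% organic nitrogen and the 3 at 0%, which are 6 of the 18 RNA-seq libraries of the series. The comparison asks which pathways and transcription factor families, beyond the genes of nitrogen metabolism, differed between these leaves, and how well the libraries of a group agreed.

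Highland barley is a hulless barley of high altitudes, and here it was grown in pots of 3.5 kg of soil and sampled at flowering. A control pot (0%) was given urea (357 mg), superphosphate (1545 mg) and potassium sulfate (140 mg). At 100%, organic fertilizer (2793 mg) took the place of urea, beside superphosphate (1289 mg) and potassium sulfate (96 mg). Used beside them were 3 leaf libraries at 40%, where a pot held both urea (215 mg) and organic fertilizer (1117 mg) with superphosphate (1443 mg) and potassium sulfate (122 mg), and the 6 root libraries at 0 and 100%. Total nitrogen, phosphorus and potassium were meant to be equal at every rate. The labels name no genotype and no hour of harvest, and do not say whether replicate libraries are of different plants or pots. The sample titles say leaf, while the design text speaks of the part above ground.

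As background, a leaf takes up light in chlorophyll proteins, fixes carbon in the Calvin cycle and sheds surplus light with the help of carotenoids and early light-inducible proteins. Much of its nitrogen lies in photosynthetic proteins, which an ageing leaf of a cereal breaks down and sends to the grain. Heat stress factors, WRKY, NAC and other transcription factor families switch gene sets on and off in response to stress, age and light, and the circadian clock sets the hour of many of them.

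The labelled tissue was checked against markers. Transcripts of leaf mesophyll markers such as the Rubisco small subunit and chlorophyll a-b binding proteins summed to 85000, 129000 and 72400 counts per 1e6 counts of a library (CPM) in control leaves 1, 2 and 3, and to 88700, 94600 and 116000 CPM in 100% leaves 1, 2 and 3. Root markers summed to 170 to 388 CPM in the controls and 551 to 755 CPM at 100%, pollen and anther markers to 14.4 to 31.3 and 3.06 to 15 CPM, and grain markers to 123 to 181 and 32.7 to 86.4 CPM. Of the 11 root markers 5 were called higher, and 3 without control leaf 1 and without 100% leaf 1, left out in turn. Nicotianamine aminotransferase B (D1007_10466) had 70.1, 41.7 and 119 CPM in control leaves and 315, 138 and 165 CPM in 100% leaves, and 397 to 426 CPM in control roots. A nicotianamine aminotransferase 1 (D1007_36438) had 13.7, 23.7 and 27.1 CPM in control leaves and 52.5, 51.2 and 41.1 CPM in 100% leaves, and 55.8 to 64.4 CPM in control roots. Both were thus higher in control roots than in control leaves. Another nicotianamine aminotransferase 1 (D1007_15332) had 55.7, 49.1 and 66.9 CPM in control leaves and 119, 115 and 100 CPM in 100% leaves, and 4.95 to 9.12 CPM in control roots. The high-affinity nitrate transporter 2.4 (D1007_49225) had 3.68, 2.24 and 7.49 CPM in control leaves and 48.9, 77.7 and 23.1 CPM in 100% leaves, and 2.19 to 2.42 CPM in control roots. Casparian strip membrane protein 2 (D1007_59456) had 1.55, 2.62 and 3.8 CPM in control leaves and 37.2, 49 and 55.4 CPM in 100% leaves, and 0 CPM in each control root. For these 3 every control root lay below the 100% leaves. The 6 root markers not called had log2 changes of 0.03 to 1.67. Among them, nitrate transporter-activating protein 2.2 (D1007_44398) had 1.76, 0.16 and 3.29 CPM in control leaves and 0, 3.27 and 2.94 CPM in 100% leaves. Its control roots had 461 to 478 CPM. Activating protein 2.1 (D1007_31256) had 46.4, 31.9 and 27 CPM and 25.9, 43.6 and 21.6 CPM in these leaves. Its control roots had 71.8 to 87.1 CPM. The part of root tissue in the differences of the root markers was not tested. In such whole-organ samples, fewer cells of a type and less RNA per cell cannot be told apart.

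The libraries of a group did not agree equally well. Over 20032 tested genes the biological coefficient of variation was 41.8% among the controls, 37% among the 40% leaves and 56.8% among the 100% leaves, and 45.8% over the 9 leaf libraries. It fell to 33.6% among the controls without control leaf 2 and to 46.1% among the 100% leaves without 100% leaf 1. Pearson's r of log2 CPM between libraries of a group, over genes, was 0.909 to 0.949 in the controls and 0.889 to 0.916 at 100%. Control leaves 1 and 3 were the closest pair of controls, and control leaf 2 was closer to 40% leaf 1 (r = 0.939) than to either of them (0.909 and 0.925). In 100% leaf 1, 1405 genes (7.01%) lay at least 4-fold below both other 100% leaves, against 143 and 374 genes in 100% leaves 2 and 3, and 19180 loci had a count there, against 23120 and 22601.

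Control leaf 2 differed from the other controls in senescence-associated genes. Senescing leaf markers summed to 17900, 1680 and 17500 CPM in control leaves 1, 2 and 3. They summed to 1020 to 1100 CPM at 40% and to 6890, 2380 and 2670 CPM at 100%. Single markers went both ways. Of 10 tested, 2 were called higher and 2 lower at 100% against 0%, and 5 higher and 1 lower against 40%. In control leaf 2, 4 of the 10 lay at least 4-fold below both other controls and 1 lay above, against 1.79% and 1.44% of all genes. The senescence-specific cysteine protease SAG39 (D1007_05290) alone had 15100, 749 and 14000 CPM in the controls, 276, 357 and 316 CPM at 40% and 5140, 1220 and 1430 CPM at 100%, and was not called (adjusted p = 0.21). Protein STAY-GREEN (D1007_08947), which takes part in dismantling chlorophyll, had 655, 54 and 634 CPM in the controls and 257, 155 and 83 CPM at 100% (adjusted p = 0.26). For both genes control leaf 2 lay below every 100% leaf while control leaves 1 and 3 lay above them. Both were chosen after their values were seen. In the other direction, lipoxygenase 2.1 (D1007_54710) had 27.3, 1540 and 59.3 CPM and peroxidase 4 (D1007_49835) had 8.1, 458 and 2.33 CPM in the controls. Both were thus high in control leaf 2 and low in the other controls, and at 40%, where they had 808, 513 and 1450 CPM and 948, 1270 and 528 CPM, they were high in every library.

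**Figure D1:**
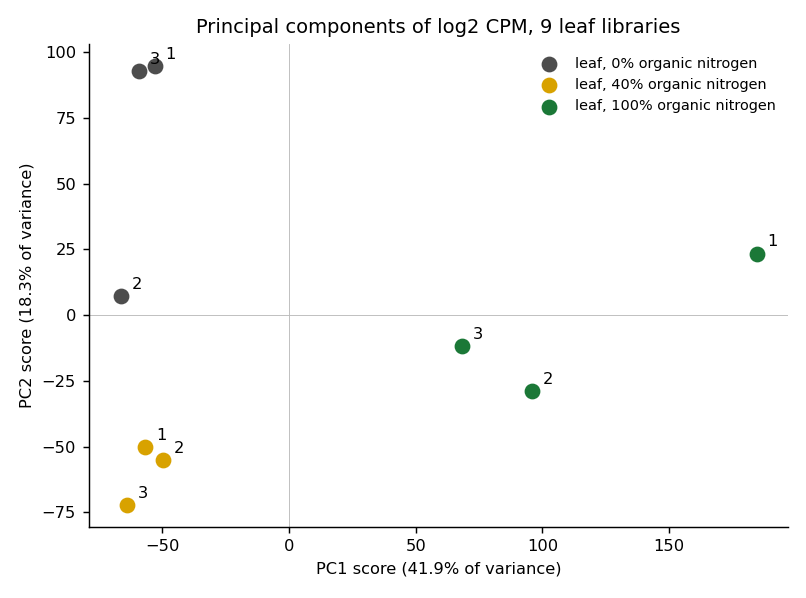
Principal components of the 9 leaf libraries over the tested genes, from log2 CPM, with 1 point per library, coloured by rate of organic nitrogen. The first component (41.9% of the variance) holds the 3 leaves at 100% at 68.4 to 184.5 and the other 6 at -49.5 to -66.4, and the second (18.3%) holds control leaves 1 and 3 at 94.7 and 92.6 and control leaf 2 at 7.2, nearer to the 40% leaves.

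The difference between 100% and 0% was wide in spite of this. Of 20032 genes tested, 4597 (22.9%) were called at an adjusted p below 0.05, 2597 (13.0%) higher and 2000 (9.98%) lower at 100%. A total of 7427 genes had an unadjusted p below 0.05. The fold change was at least 4 in 1017 of the genes called higher and 581 of those called lower, and at least 8 in 497 and 265. All 3 libraries of a group lay above the other 3 in 2290 of the genes called higher and 1965 of those called lower. Over all tested genes such separation held for 8931 (44.6%), with 100% above in 2833 (14.1%) and below in 6098 (30.4%). Separation was read from CPM of the library total, without the scaling factors of the calls, which places the 100% leaves lower than the fit does. Each of the 6 libraries could be left out without losing the call for 1254 of the higher and 787 of the lower genes. Without control leaf 1 the calls were 1595 higher and 1161 lower, and without control leaf 3 they were 1421 and 967. Libraries at 100% had the smallest scaling factors (0.872 to 0.925, against 1.04 to 1.09 in the controls). The median log2 change of all genes was -0.07 with the scaling used and -0.33 with library size alone, under which 1933 genes (9.65%) were called higher and 3261 (16.3%) lower.

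By smallest adjusted p, the gene at the head of those higher was D1007_56609, annotated as a putative methionyl-tRNA synthetase, an enzyme that loads methionine onto its transfer RNA. It had 5.59, 4.49 and 5.34 CPM in the controls and 157, 156 and 130 CPM at 100% (5.09 ± 0.26 on the log2 scale, ± SE, adjusted p = 6.4e-05, edgeR quasi-likelihood test). The vacuolar-processing enzyme D1007_56610, a cysteine protease that matures proteins in the vacuole, is its neighbour on scaffold SDOW01001054.1, 674 bases away on the opposite strand, and rose from 32.6 ± 7.06 to 511 ± 112 CPM (mean ± SD, n = 3). Neither pair of groups overlapped, which the rule that named these genes required. Because the sources do not state how the counting used strand, reads running past the end of either gene cannot be assigned to it with certainty. LOGL5 (D1007_47842), an enzyme that activates cytokinins, rose from 12.2 ± 2.32 to 158 ± 24.7 CPM (3.95 ± 0.24, adjusted p = 9e-05), with 51.1, 56.3 and 57.2 CPM at 40%, between both groups and apart from each. Trichome birefringence-like 11 (D1007_43254), of a family that acetylates cell wall polysaccharides, had 6.07, 7.59 and 8.8 CPM at 0% and 147, 106 and 91.4 CPM at 100%.

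Also among the 10 genes named for the smallest adjusted p were 5'-adenylylsulfate reductase 1 and a 17.9 kDa heat shock protein, both described with their lists, and the following. UVR8 (D1007_27547), annotated as the ultraviolet-B receptor, had 11.1, 8.66 and 7.27 CPM in the controls and 203, 166 and 145 CPM at 100% (4.50 ± 0.27, adjusted p = 9e-05). The plastid sigma factor sigE (D1007_45316), which directs the RNA polymerase of chloroplasts to its promoters, had 38.9, 41.6 and 43.3 CPM at 0% and 248, 279 and 299 CPM at 100%. PDX1.1 (D1007_16752), a subunit of the enzyme that makes vitamin B6, had 36.4, 30.2 and 42.9 CPM at 0% and 907, 868 and 498 CPM at 100%. All of these were several times higher in each 100% leaf than in any control. GDP-L-galactose phosphorylase 2 (D1007_45697), an enzyme of ascorbate synthesis, rose from 55.2 ± 4.28 to 676 ± 204 CPM (3.86 ± 0.27, adjusted p = 0.00016).

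Of the 10 lower genes named in the same way, 6 are given here, and others with their lists. Purine permease 3 (D1007_47683) fell from 78.4 ± 23 to 2.93 ± 0.849 CPM (-4.48 ± 0.33, adjusted p = 0.0002). The gamma-1 regulatory subunit of the SNF1-related protein kinase (D1007_16922), a sensor of low energy, had 40.8, 35 and 60.9 CPM in the controls and 4.36, 3.16 and 3.5 CPM at 100%. Succinate-semialdehyde dehydrogenase (D1007_06806), which feeds the carbon of gamma-aminobutyrate into the citric acid cycle, had 211, 167 and 229 CPM at 0% and 20, 24.6 and 31.9 CPM at 100%. In both the 100% leaves lay together far under the controls. Sphingosine kinase 1 (D1007_33493) fell from 114 ± 18.5 to 22.2 ± 2.75 CPM, a universal stress protein A-like gene (D1007_59885) from 129 ± 12.4 to 9.73 ± 5.02 CPM, and a glycosyl hydrolase of family 5 (D1007_19237) from 80.4 ± 9.57 to 11.8 ± 3.12 CPM.

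Across 48 lists of pathways and protein families other than those of nitrogen, 2613 genes were tested, of which 411 (15.7%) were called higher and 259 (9.91%) lower, against the 13.0% and 9.98% of all genes. Single lists departed from this in both directions, and others stayed near the shares of all genes, as iron and zinc nutrition (11.9% and 9.52%) did. Beside the count of a list, the count with library size alone stands for part of the lists, and its absence does not show that the count stayed. The counts without a library stand where a count of 4 or more moved by more than 1.5 times.

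Photoprotection genes had the largest median log2 change of the lists (8.31, early light-inducible proteins). These proteins bind pigments in the thylakoid membrane when light exceeds what a leaf can use. All were higher, 12 of 12 tested genes, with fitted log2 changes of 5.90 to 15.48. The top of this range is not a measured ratio. It belongs to a gene whose mean control level lay under 3 counts per library, which cannot be told from 0. Transcripts of these proteins summed to 7.03, 2.89 and 11.6 CPM in the controls and 10.3, 6.95 and 32.3 CPM at 40%. At 100% the sums were 1200, 2950 and 580 CPM. The lowest 100% leaf thus lay far above the highest library of the other rates, and all 12 genes were called in each leave-out. The member of smallest adjusted p, a low molecular mass early light-inducible protein HV90 at an assembled locus (scaffold SDOW01000186.1, 4097998 to 4177859, minus strand), had 0.32, 0.0534 and 0.454 CPM in the controls and 129, 193 and 47.9 CPM at 100%. The loci share annotations, and how reads were split among them was not tested.

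Of 18 genes of carotenoid synthesis and the xanthophyll cycle 11 were higher and 0 lower (median log2 change of the list 0.93), and 8 were called higher with library size alone. The entry step is phytoene synthase, and phytoene synthase 2 (D1007_26437) had 8.79, 51.6 and 27.4 CPM in the controls, 122, 146 and 78.1 CPM at 40% and 589, 480 and 641 CPM at 100% (4.54 ± 0.60, adjusted p = 0.0011). The 3 rates formed separate ranges. Phytoene synthase 1 (D1007_54375) had 11.2, 69.5 and 35.1 CPM at 0% and 172, 374 and 388 CPM at 100%, and phytoene desaturase (D1007_02854), the next enzyme, 156, 119 and 177 CPM at 0% and 316, 263 and 261 CPM at 100%. The choice of these 3 was made with their values in view. Violaxanthin de-epoxidase (D1007_55176), which makes zeaxanthin in strong light, rose from 18 ± 3.61 to 80.3 ± 20.4 CPM (2.40 ± 0.24, adjusted p = 0.00041).

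Among proteins of the photosystems and antennae 13 of 57 were higher and 2 lower (11 and 5 with library size alone). Without control leaf 1, 7 of these genes were higher. The median log2 change of the list was 0.18, and -0.08 with library size alone. Its transcripts summed to 95800, 139000 and 74900 CPM in the controls and to 72200, 82000 and 107000 CPM at 100%, so the groups overlapped. An assembled locus annotated as the photosystem II 10 kDa polypeptide (scaffold SDOW01000186.1, 79336 to 80699, minus strand) had 690, 331 and 444 CPM in the controls and 6.95, 16.2 and 8.41 CPM at 100% (-5.30 ± 0.44, adjusted p = 0.00025). In chlorophyll and haem synthesis 10 of 28 genes were higher and 3 lower (8 and 4 with library size alone). Glutamyl-tRNA reductase 3 (D1007_45380), at the first committed step, had 2.82, 3.58 and 4.26 CPM at 0% and 31.6, 31.2 and 14 CPM at 100%. Geranylgeranyl diphosphate reductase (D1007_00149), which makes the tail of chlorophyll, fell from 23.3 ± 10.2 to 3.15 ± 0.745 CPM (-2.64 ± 0.43, adjusted p = 0.0031). Pheophorbide a oxygenase (D1007_52605), which opens the chlorophyll ring in ageing leaves, was the member called of 7 breakdown genes, with 1310, 542 and 1420 CPM at 0% and 430, 181 and 231 CPM at 100% (adjusted p = 0.024). The call was lost without control leaves 1 and 3 and 100% leaves 2 and 3, left out in turn (adjusted p = 0.071, 0.09, 0.068 and 0.065), and in a fit of the 6 compared libraries alone (adjusted p = 0.061).

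Most genes of the Calvin cycle rose. Of 33 Calvin cycle genes 21 were higher, with log2 changes of 0.95 to 4.99, and 2 were lower, and the summed level was 21200, 33600 and 23800 CPM in the controls and 55000, 59600 and 57200 CPM at 100%. Chloroplast fructose-bisphosphate aldolase (D1007_32831), which joins triose phosphates, had 104, 279 and 192 CPM in the controls, 408, 410 and 493 CPM at 40% and 2790, 3720 and 2900 CPM at 100% (4.28 ± 0.39, adjusted p = 0.00032). The Rubisco-binding chaperonin subunit alpha (D1007_47868), which folds the large subunit of Rubisco, went the other way, from 130 ± 14.7 to 33 ± 6.52 CPM (-1.73 ± 0.22, adjusted p = 0.0011). In photorespiration, which salvages the product of Rubisco's reaction with oxygen, 11 of 26 genes were higher and 0 lower (11 and 2 with library size alone), and the sums were 10900, 21400 and 13100 CPM in the controls and 31900, 34100 and 38100 CPM at 100%. Control leaf 2 was the highest control in both sums and still lay under each 100% leaf.

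**Figure D2:**
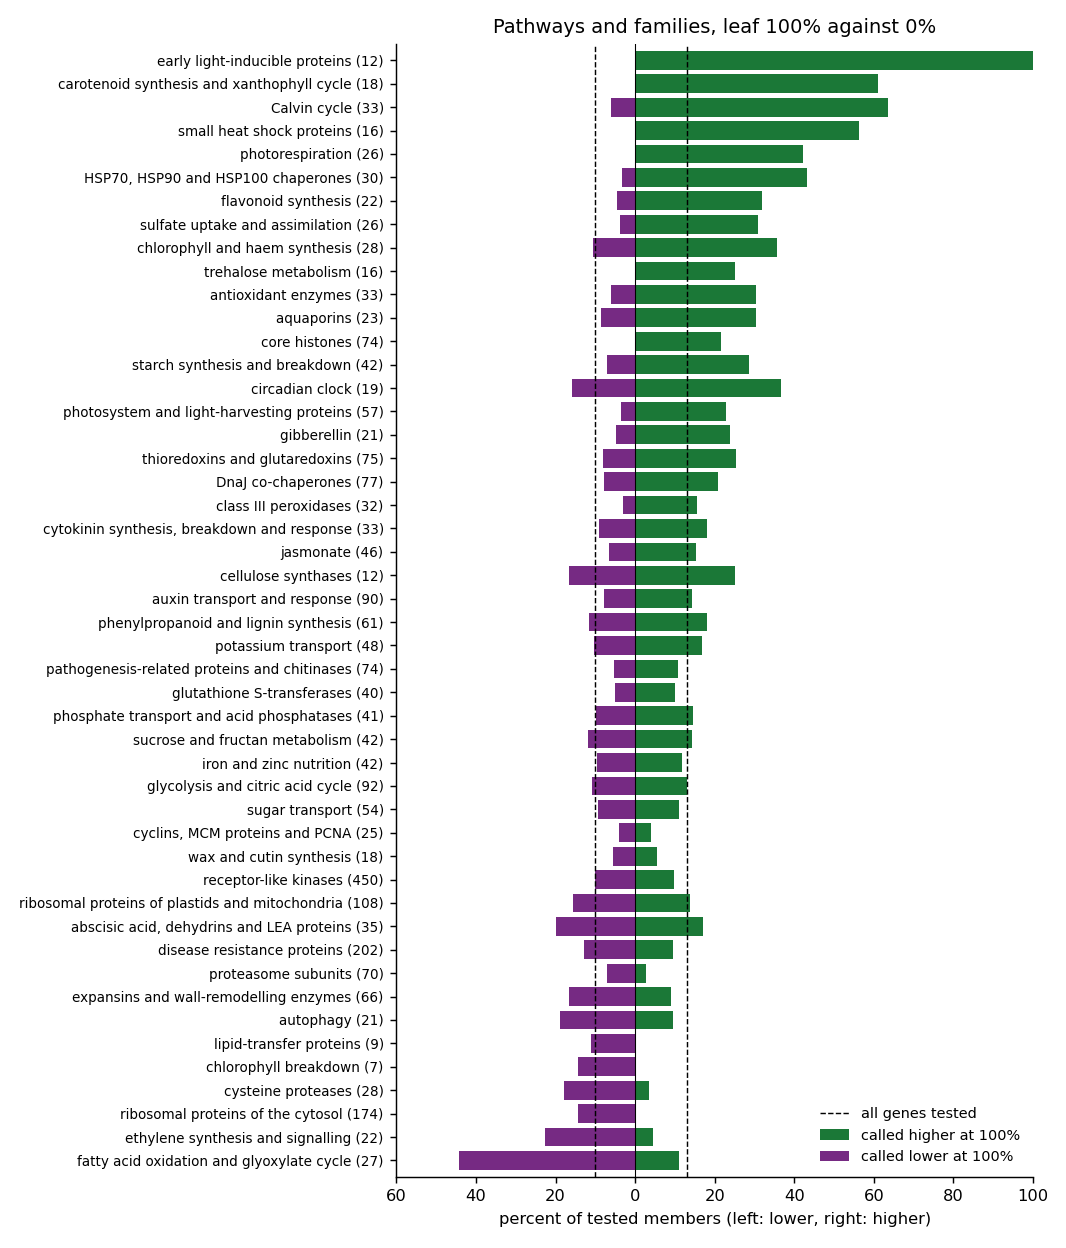
Percent of the tested genes of each pathway list that were called higher or lower at 100% against 0% (bars, in percent), beside the share over all genes tested, 13.0% higher and 9.98% lower. Early light-inducible proteins reach 100% higher, the Calvin cycle, carotenoid synthesis and small heat shock proteins follow, and of the cytosolic ribosome 25 of 174 genes were lower and 0 higher. The number of tested genes stands beside each name.

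Of 42 starch genes 12 were higher and 3 lower (11 and 4 with library size alone). Starch synthase 1, which lengthens the glucan chains of starch, was measured at an assembled locus (scaffold SDOW01000128.1, 7867615 to 7875051, minus strand) at 77.1, 70.4 and 103 CPM in the controls and 594, 554 and 500 CPM at 100% (2.98 ± 0.24, adjusted p = 0.00022). Sucrose synthase 1 (D1007_25299), which splits sucrose, fell from 490 ± 154 to 106 ± 51.8 CPM (-1.95 ± 0.37, adjusted p = 0.0063). Plastidic glucose transporter 4 (D1007_54409), which exports glucose from the chloroplast, fell from 244 ± 24.9 to 48.1 ± 8.11 CPM, while the sugar transporter ERD6-like 16 (D1007_08702) had 5.65, 10.2 and 7.72 CPM at 0% and 68.7, 44 and 33.9 CPM at 100%. In the transport of sugars 6 of 54 genes were higher and 5 lower (4 and 6 with library size alone). In sucrose and fructan metabolism 6 of 42 were higher and 5 lower (5 and 8 with library size alone). Shares were 11.1% and 9.26% for sugar transport and 14.3% and 11.9% for sucrose and fructan, near those of all genes (13.0% and 9.98%). Lower sugar transport genes numbered 3 and 8 without control leaf 3 and 100% leaf 2, left out in turn. With control leaf 3 left out, 3 of the sucrose and fructan genes were higher. Of the sucrose and fructan genes, 3 each were lower without control leaf 3 and 100% leaves 2 and 3, left out in turn.

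Glycolysis and the citric acid cycle had 12 of 92 genes higher and 10 lower (9 and 22 with library size alone). These shares, 13.0% and 10.9%, lay near the 13.0% and 9.98% of all genes. The genes called lower came to 5, 6 and 4 without control leaves 1, 2 and 3, left out in turn. A plastid pyruvate kinase (D1007_23296), which makes pyruvate for fatty acid synthesis, rose from 18.2 ± 2.18 to 130 ± 37.6 CPM (3.09 ± 0.26, adjusted p = 0.00025), and ATP-dependent phosphofructokinase 7 (D1007_26641) fell from 56 ± 11.2 to 19.7 ± 4.18 CPM. Of 27 genes of fatty acid oxidation and the glyoxylate cycle 3 were higher and 12 lower, a median log2 change of -0.82. The count of lower genes was 6 each with control leaves 1 and 3 and 100% leaf 2 left out in turn. A multifunctional protein of peroxisomal beta-oxidation (D1007_41144) had 242, 149 and 323 CPM in the controls, 133, 118 and 94 CPM at 40% and 49.7, 40.2 and 52 CPM at 100% (-2.07 ± 0.29, adjusted p = 0.0016). Acyl-CoA oxidase 4 (D1007_41651), chosen after its values were seen, had 283, 139 and 297 CPM at 0% and 75, 78.6 and 72 CPM at 100%, and its 40% leaves, at 122, 114 and 105 CPM, lay between the groups as in the gene before. Against 40%, 2 genes of this list were lower and 4 higher. Control leaves 1 and 3, in which the senescing leaf markers were high, were the highest controls in both of these genes, and the part of those markers in the difference was not tested.

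Of 16 heat stress transcription factors, which switch on chaperone genes, 11 were higher and 0 lower, with log2 changes of 1.03 to 6.02, and their transcripts summed to 389, 345 and 303 CPM in the controls, 391, 442 and 413 CPM at 40% and 2230, 1350 and 1850 CPM at 100%. Factor A-2d (D1007_16146) had 32.4, 40.4 and 21.2 CPM, 91.2, 87.5 and 73.3 CPM and 325, 374 and 368 CPM at 0, 40 and 100% (3.75 ± 0.28, adjusted p = 0.0002, 100% against 0%). The rates formed 3 separate ranges. Factors A-2a (D1007_05190), A-2c (D1007_30082), B-2a (D1007_41024) and B-2b (D1007_40332) were chosen after their values were seen. A-2a had 2.18, 2.24 and 3.18 CPM in the controls and 278, 36.8 and 94.2 CPM at 100%. A-2c had 38.1, 31.9 and 29.1 CPM at 0% and 369, 186 and 350 CPM at 100%. For B-2a, of the class thought to repress or co-activate heat genes, the values were 3.68, 3.31 and 1.87 CPM at 0% and 117, 48.5 and 55.8 CPM at 100%. B-2b had 11.1, 6.73 and 6.98 CPM at 0% and 173, 44.2 and 132 CPM at 100%. In these 4 factors 100% leaf 2 was the lowest of its group, and still lay above each control.

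Small heat shock proteins, which hold unfolded proteins in solution, had 9 of 16 genes higher and 0 lower, with log2 changes of 3.04 to 6.74. Their sum was 85.9, 140 and 108 CPM in the controls, 227, 195 and 346 CPM at 40% and 922, 1310 and 1130 CPM at 100%. The member of smallest adjusted p, a 17.9 kDa class I heat shock protein at an assembled locus (scaffold SDOW01000171.1, 2011725 to 2080383, minus strand), had 3.36, 3.63 and 2.67 CPM in the controls, 3.09, 3.79 and 3.47 CPM at 40% and 53, 94.6 and 136 CPM at 100% (5.12 ± 0.38, adjusted p = 0.0002). Its 100% leaves lay far above the other 6 libraries, which overlapped. Among HSP70, HSP90 and HSP100 chaperones 13 of 30 were higher and 1 lower, and the sums were 6040, 5240 and 7270 CPM in the controls and 11200, 8670 and 9030 CPM at 100%. DnaJ co-chaperones, which hand clients to HSP70, had 16 of 77 higher and 6 lower (12 and 11 with library size alone). Without control leaf 3, 8 of these genes were higher. Lower genes numbered 2 without control leaf 3. The DnaJ homolog ANJ1 (D1007_47724) rose from 100 ± 5.77 to 832 ± 308 CPM (3.31 ± 0.30, adjusted p = 0.00032). A DnaJ protein at an assembled locus (scaffold SDOW01000185.1, 1496940 to 1498761, plus strand) moved the opposite way, with 99.8, 197 and 93.6 CPM in the controls and 4.6, 3.49 and 3.95 CPM at 100% (-4.77 ± 0.36, adjusted p = 0.0002).

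Ribosomal proteins of the cytosol were lower or not called. Of 174 genes 25 were lower and 0 higher, or 68 and 0 with library size alone, and the median log2 change was -0.59. With control leaves 1, 2 and 3 and 100% leaves 1 and 2 left out in turn, 6, 14, 15, 15 and 15 of the genes were lower. Their sum was 15100, 10900 and 10200 CPM in the controls and 5050, 8560 and 8230 CPM at 100%, so 100% leaf 1 was the lowest and control leaf 1 the highest. Ubiquitin-60S ribosomal protein L40 (D1007_58793) fell from 15.8 ± 1.85 to 2.74 ± 2.04 CPM (-2.29 ± 0.48, adjusted p = 0.0095). Ribosomal proteins of plastids and mitochondria split, with 15 of 108 higher and 17 lower, and 9 and 25 with library size alone. Of the genes, 7, 5 and 8 were higher without control leaves 1 and 3 and 100% leaf 3, left out in turn. The genes called lower came to 9 and 11 without control leaf 1 and 100% leaf 1, left out in turn. The chloroplast 50S ribosomal protein 5 (D1007_51698) rose from 67 ± 9.4 to 155 ± 27.8 CPM (1.45 ± 0.23, adjusted p = 0.0028).

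Some genes of protein breakdown differed among the controls as well as between the rates. Cysteine proteases summed to 37900, 8870 and 38800 CPM in the controls, 5480 to 6000 CPM at 40% and 12300, 6300 and 6930 CPM at 100%. Of 28 genes 1 was higher and 5 lower, or 3.57% and 17.9% against 13.0% and 9.98% of all genes. With library size alone 1 was higher and 9 lower. The count of lower genes was 1, 8, 1 and 2 with control leaves 1, 2 and 3 and 100% leaf 2 left out in turn. Vacuolar-processing enzyme D1007_57094 had 7920, 2620 and 6840 CPM in the controls, 1210, 1240 and 1550 CPM at 40% and 1300, 843 and 881 CPM at 100% (-2.26 ± 0.42, adjusted p = 0.0056). The 40% and 100% leaves overlapped in this gene (log2 change -0.15 between them, adjusted p = 0.83), while its homologue D1007_56610 rose at 100%. Endonuclease 4 (D1007_18731), a nuclease of dying cells chosen after its values were seen, had 899, 13.8 and 1110 CPM at 0% and 38.3, 31.5 and 15.3 CPM at 100% (adjusted p = 0.028). The call was lost without control leaves 1 and 3 and 100% leaves 1, 2 and 3, left out in turn (adjusted p = 0.069, 0.082, 0.062, 0.073 and 0.076), and with the replicate number as a block (adjusted p = 0.09) and in a fit of the 6 compared libraries alone (adjusted p = 0.063). Proteasome subunits had 2 of 70 genes higher and 5 lower, and 0 and 14 with library size alone. Their shares, 2.86% and 7.14%, lay under those of all genes. Without control leaves 1, 2 and 3 and 100% leaves 1 and 2, left out in turn, 2, 3, 2, 2 and 3 of these proteasome genes were lower. Subunit alpha type-7-A (D1007_51104) fell from 117 ± 17.9 to 33 ± 9.12 CPM. In autophagy, which delivers cell contents to the vacuole, 2 of 21 were higher and 4 lower (1 and 8 with library size alone), or 9.52% and 19.0%. Lower autophagy genes numbered 2, 7 and 1 without control leaves 1, 2 and 3, left out in turn.

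**Figure D3:**
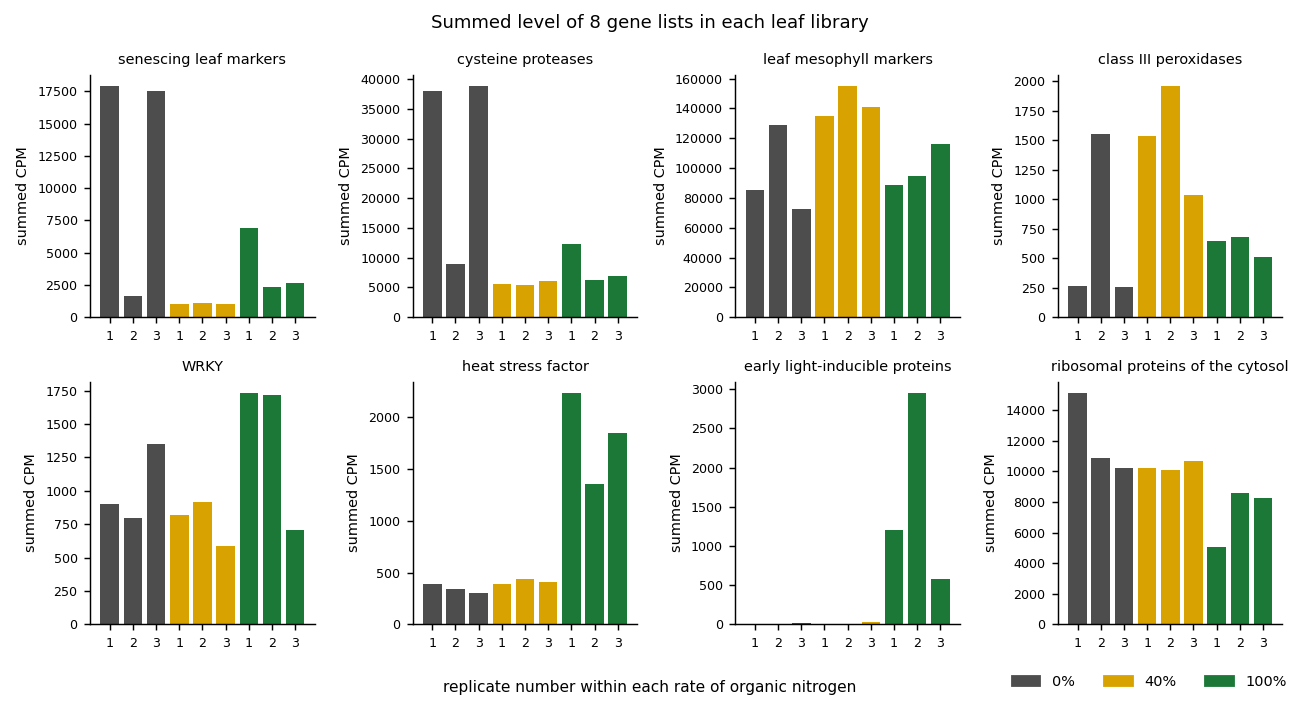
Summed transcript level of 8 gene lists in each of the 9 leaf libraries (CPM, linear scale, 1 bar per library, coloured by rate of organic nitrogen). Control leaf 2 stands apart from the other controls for senescing leaf markers, cysteine proteases and class III peroxidases, while heat stress factors and early light-inducible proteins separate the 100% leaves from the other 6.

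Of 19 clock genes 7 were higher and 3 lower (5 and 3 with library size alone). With control leaf 3 left out, 4 of the genes were higher. The pseudo-response regulator PRR95 (D1007_25582), a repressor in the clock's daily loop, had 81.4, 91.9 and 86.7 CPM in the controls, 98.7, 67.9 and 81.3 CPM at 40% and 16.3, 13.9 and 17.2 CPM at 100% (-2.20 ± 0.20, adjusted p = 0.0003). The 6 libraries at 0 and 40% overlapped, and the 3 at 100% lay far below them. Adagio-like protein 3 (D1007_29028), of a family of blue-light receptors that mark clock proteins for breakdown, had 25.9, 20.2 and 41.6 CPM in the controls and 2.24, 1.18 and 1.86 CPM at 100% and was chosen after its values were seen. PRR37 (D1007_42787), known in barley as the photoperiod gene for flowering time, rose from 174 ± 32.3 to 397 ± 28.5 CPM (1.44 ± 0.22, adjusted p = 0.0024). REVEILLE 6 (D1007_19642), of a family of MYB-related clock factors, had 33.7, 30.7 and 31.1 CPM at 0% and 65.8, 65.1 and 60.1 CPM at 100%. LNK1 (D1007_24309), a light-induced clock co-factor chosen after its values were seen, had 270, 266 and 270 CPM at 0% and 627, 519 and 502 CPM at 100%. In each of these clock genes the controls and the 100% leaves did not overlap. This followed from their selection, by a rule that required it or with their values in view. Since the hour of harvest is not in the labels, hour and rate cannot be told apart for genes that follow the time of day.

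**Figure D4:**
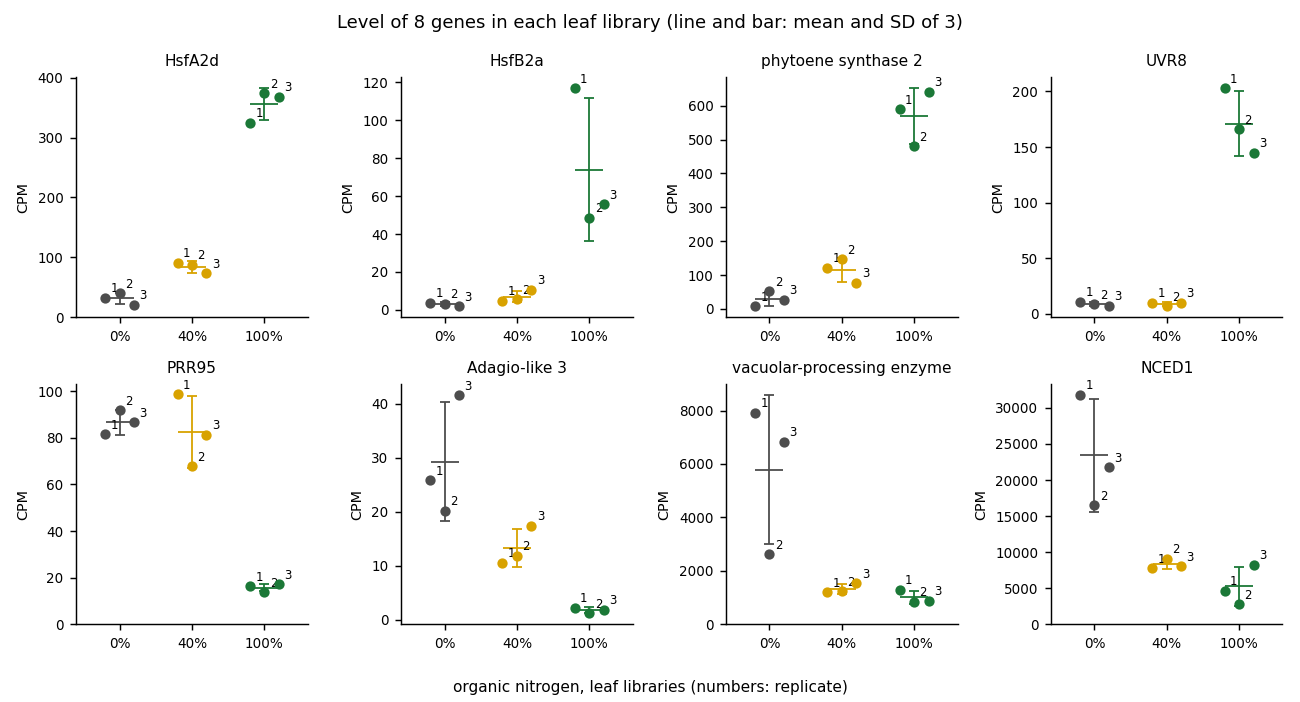
Level of 8 named genes in each of the 9 leaf libraries (CPM, linear scale, 1 point per library, by rate of organic nitrogen, with the mean and SD of 3 as a line and bar). Heat stress factors A-2d and B-2a, phytoene synthase 2 and UVR8 lie above the controls in every 100% leaf, and PRR95 and Adagio-like protein 3 lie below them. Vacuolar-processing enzyme D1007_57094 and NCED1 are higher in each control than in the other 6 libraries.

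Over 25 transcription factor families 664 genes were tested, of which 125 (18.8%) were higher and 54 (8.13%) lower, with a median log2 change of 0.22 against -0.07 for all genes. The WRKY family, regulators of defence and ageing, had the most members higher of these families, 18 of 52, with 1 lower. With library size alone 12 were higher and 2 lower. Of the genes, 5, 8, 3 and 8 were higher without control leaves 1, 2 and 3 and 100% leaf 2, left out in turn. In 12 of the 18 the groups did not overlap. WRKY50, at an assembled locus (scaffold SDOW01000932.1, 1105572 to 1107166, plus strand), had 0.373, 0.801 and 0.114 CPM in the controls and 37.3, 12.8 and 13.3 CPM at 100% (5.84 ± 0.91, adjusted p = 0.0027). WRKY71 (D1007_57881), chosen after its values were seen, had 13.8, 43.4 and 16.5 CPM at 0% and 378, 148 and 43 CPM at 100%, so 100% leaf 3 reached no higher than control leaf 2. The summed WRKY level likewise was 903, 793 and 1350 CPM in the controls and 1730, 1720 and 706 CPM at 100%. In 100% leaf 3, 7 of the 52 genes lay at least 4-fold below both other leaves of its group, and 10 (19.2%) lay that far above in 100% leaf 2, as did 443 (2.21%) of all genes.

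**Figure D5:**
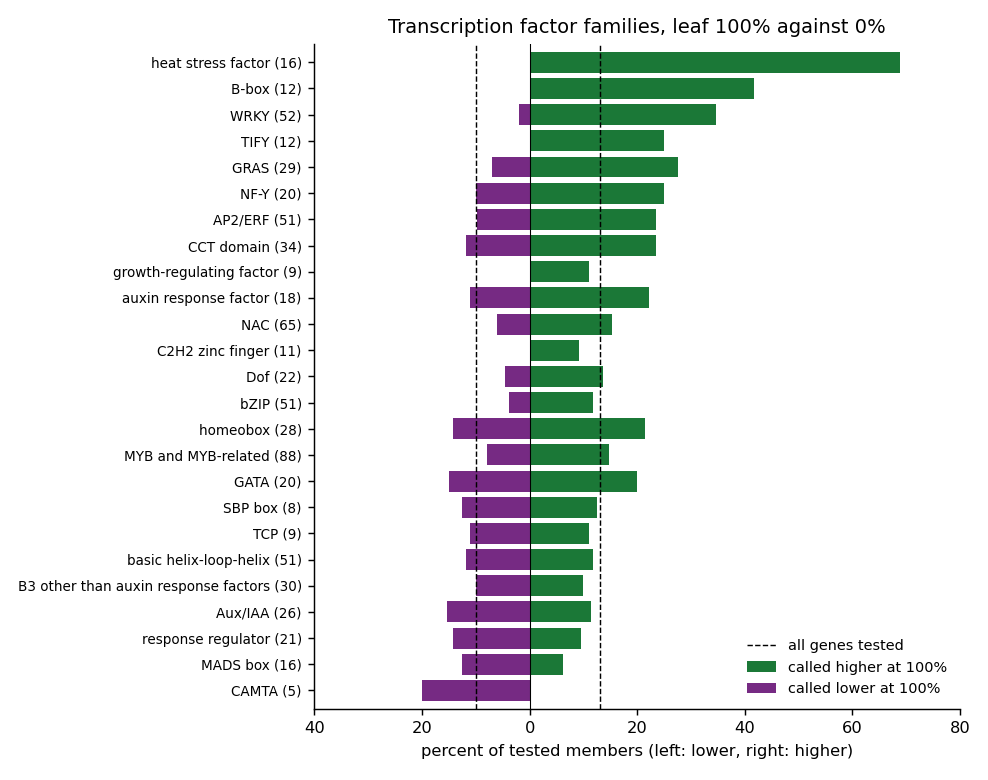
Percent of the tested genes of each transcription factor family called higher or lower at 100% against 0% (bars, in percent), beside the share over all genes tested (13.0% higher, 9.98% lower). Heat stress factors, B-box factors and WRKY factors have the largest shares higher.

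In the B-box family, zinc finger proteins of light signalling, 5 of 12 were higher and 0 lower (3 and 0 with library size alone). The genes called higher came to 3, 8, 2 and 3 without control leaves 1, 2 and 3 and 100% leaf 3, left out in turn. B-box protein 24 (D1007_01737) rose from 72.3 ± 26.7 to 274 ± 26.3 CPM (2.18 ± 0.32, adjusted p = 0.0019). AP2/ERF factors, many of which act in stress and ethylene responses, had 12 of 51 higher and 5 lower (10 and 9 with library size alone). The count of higher genes was 4, 3, 7 and 7 with control leaves 1 and 3 and 100% leaves 1 and 2 left out in turn. Without control leaf 1, 3 of these genes were lower. RAP2-2 (D1007_57343), an ethylene response factor linked to low oxygen in Arabidopsis, had 186, 169 and 150 CPM in the controls and 38.8, 41.5 and 31.8 CPM at 100% (-1.92 ± 0.20, adjusted p = 0.00044). NAC factors, a family with regulators of leaf senescence and grain nutrient content in cereals, had 10 of 65 higher and 4 lower. These shares were 15.4% and 6.15%, against 13.0% and 9.98% of all genes. Higher NAC genes numbered 2, 5, 1 and 5 without control leaves 1, 2 and 3 and 100% leaf 2, left out in turn. With control leaves 1 and 3 and 100% leaf 2 left out in turn, 1, 2 and 1 of the genes were lower. NAC22 (D1007_15134) had 0.373, 0.962 and 0.284 CPM at 0% and 8.31, 69.3 and 2.65 CPM at 100%, and most of the level at 100% lay in 100% leaf 2. NTM1-like 9 (D1007_33191) fell from 37.8 ± 5.4 to 9.49 ± 3.08 CPM.

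GRAS factors, which include the DELLA repressors of gibberellin responses, had 8 of 29 higher and 2 lower (3 and 5 with library size alone). The balance of the counts thus turned with the scaling, as over all genes (9.65% higher and 16.3% lower with library size alone). The median log2 change of the family was 0.41, and 0.16 with library size alone, against -0.07 and -0.33 for all genes. Of the genes, 0, 5, 1, 3 and 4 were higher without control leaves 1, 2 and 3 and 100% leaves 1 and 2, left out in turn. The DELLA protein SLN1 (D1007_46206) fell from 238 ± 15.5 to 113 ± 17.8 CPM (-0.82 ± 0.19, adjusted p = 0.015). MYB and MYB-related factors had 13 of 88 higher and 7 lower (9 and 11 with library size alone), basic helix-loop-helix factors 6 and 6 of 51 (4 and 7 with library size alone), and bZIP factors 6 and 2 of 51. Shares of the MYB genes, 14.8% higher and 7.95% lower, lay near the 13.0% and 9.98% of all genes. Those of the helix-loop-helix genes (11.8% and 11.8%) did so too, and the bZIP genes had 11.8% higher and 3.92% lower. The MYB genes called higher came to 7, 7 and 8 without control leaves 1 and 3 and 100% leaf 2, left out in turn. The count of lower MYB genes was 3, 3, 2 and 3 with control leaves 1, 2 and 3 and 100% leaf 1 left out in turn. Without control leaf 3, 1 of these helix-loop-helix genes were higher. Lower helix-loop-helix genes numbered 2 each without control leaf 3 and 100% leaves 1 and 2, left out in turn. With control leaves 1 and 3 left out in turn, 3 each of the bZIP genes were higher. PIF1, a light-labile repressor of chlorophyll and carotenoid synthesis in Arabidopsis, was annotated at an assembled locus (scaffold SDOW01000038.1, 2943027 to 2947035, plus strand) that had 72, 69.5 and 106 CPM in the controls and 3.89, 13.6 and 9.48 CPM at 100% (-2.95 ± 0.39, adjusted p = 0.0012). GAMYB (D1007_12460), a target of gibberellin signalling, fell from 18.2 ± 2.72 to 4.7 ± 1.91 CPM, and bZIP factor 12 (D1007_07781) rose from 6.86 ± 1.45 to 45.8 ± 16.1 CPM. A B3 domain protein annotated as Os03g0619800 (D1007_06698) had 18.1, 20.1 and 14 CPM at 0% and 1, 1.63 and 1.69 CPM at 100%. Of 28 homeobox genes 6 were higher and 4 lower (4 and 5 with library size alone). Of the homeobox genes, 3, 2 and 2 were higher without control leaves 2 and 3 and 100% leaf 1, left out in turn.

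In abscisic acid synthesis, 9-cis-epoxycarotenoid dioxygenase NCED1 (D1007_28942), the committed enzyme, had 31800, 16500 and 21800 CPM in the controls, 7810, 9090 and 8030 CPM at 40% and 4680, 2820 and 8260 CPM at 100% (-1.89 ± 0.46, adjusted p = 0.017). It was an abundant transcript in each leaf library, and the 40% and 100% leaves overlapped. The call was lost without control leaf 1 and 100% leaf 1, left out in turn (adjusted p = 0.055 and 0.055), and in a fit of the 6 compared libraries alone (adjusted p = 0.059). Around it, 6 of 35 genes of abscisic acid, dehydrins and LEA proteins were higher and 7 lower (5 and 8 with library size alone). The genes called higher came to 3 each without control leaves 1 and 3, left out in turn. The count of lower genes was 0, 4, 1, 1 and 2 with control leaves 1, 2 and 3 and 100% leaves 1 and 2 left out in turn. Cytokinin genes had 6 of 33 higher and 3 lower (5 and 4 with library size alone), and beside LOGL5 the cytokinin dehydrogenase 8 (D1007_18407), which degrades cytokinins, had 44.5, 10.8 and 38.5 CPM in the controls and 0, 0.902 and 1.13 CPM at 100% (-5.26 ± 0.93, adjusted p = 0.0045).

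Auxin transport and response had 13 of 90 genes higher and 7 lower (11 and 12 with library size alone). These shares, 14.4% and 7.78%, lay near the 13.0% and 9.98% of all genes. Without control leaves 1 and 3 and 100% leaf 2, left out in turn, 5, 5 and 8 of the auxin genes were higher. Lower genes numbered 3 each without control leaves 1 and 3, left out in turn. Auxin response factor 19 (D1007_22095) rose from 4.96 ± 0.821 to 23.8 ± 5.86 CPM (2.51 ± 0.31, adjusted p = 0.00094), and the repressor IAA15 (D1007_13264) fell from 134 ± 34.4 to 18.6 ± 10.2 CPM (-2.59 ± 0.40, adjusted p = 0.0025). Jasmonate genes had 7 of 46 higher and 3 lower, or 15.2% and 6.52% against 13.0% and 9.98% of all genes. Jasmonate-induced oxygenase 2 (D1007_61034), which inactivates jasmonate by hydroxylation, had 14.1, 3.9 and 10.4 CPM in the controls and 230, 436 and 244 CPM at 100% (5.24 ± 0.63, adjusted p = 0.00083). In the putative 12-oxophytodienoate reductase 4 (D1007_53660), whose family includes an enzyme of jasmonate synthesis, the values were 1430, 514 and 1120 CPM at 0% and 94, 53.7 and 98.3 CPM at 100% (-3.37 ± 0.44, adjusted p = 0.0011). These genes thus changed in opposite directions. TIFY 11b (D1007_21563), of the family of jasmonate repressors, had 24.2, 5.61 and 5.73 CPM at 0% and 350, 163 and 30.4 CPM at 100%, with a wide range at 100%. In ethylene genes 1 of 22 was higher and 5 lower (1 and 9 with library size alone). In gibberellin genes 5 of 21 were higher and 1 lower. With control leaves 1 and 3 and 100% leaves 1 and 2 left out in turn, 1, 1, 3 and 3 of the gibberellin genes were higher. Of the ethylene genes, 3, 2 and 2 were lower without control leaves 2 and 3 and 100% leaf 2, left out in turn. Among the ethylene genes 1-aminocyclopropane-1-carboxylate oxidase (D1007_28056), the last enzyme of its synthesis, had 12, 5.66 and 56.4 CPM at 0% and 0, 0.564 and 1.3 CPM at 100%.

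In mineral nutrition, sulfate uptake and assimilation had 8 of 26 genes higher and 1 lower (5 and 2 with library size alone). The genes called higher came to 5 without control leaf 1. 5'-adenylylsulfate reductase 1 (D1007_25844), which reduces activated sulfate in plastids, had 23.4, 15.6 and 11.6 CPM in the controls, 36.7, 24.1 and 59.9 CPM at 40% and 1310, 1730 and 1960 CPM at 100% (6.87 ± 0.48, adjusted p = 0.00016). Each 100% leaf lay far above the other 6 libraries. Among these the rates of 0 and 40% did not overlap, by 24.1 against 23.4 CPM. The same test did not call them different (log2 change 1.23, adjusted p = 0.15). A cysteine synthase of plastids at an assembled locus (scaffold SDOW01001008.1, 502595 to 505614, plus strand) was the one lower, from 92.3 ± 33.1 to 23.8 ± 5.84 CPM (-1.70 ± 0.31, adjusted p = 0.0052). Of 41 genes of phosphate transport and acid phosphatases 6 were higher and 4 lower (4 and 6 with library size alone). These shares, 14.6% and 9.76%, lay near the 13.0% and 9.98% of all genes. The count of higher phosphate genes was 3 and 2 with control leaves 1 and 3 left out in turn. Without 100% leaf 2, 7 of these phosphate genes were lower. PHOSPHATE STARVATION RESPONSE 3 (D1007_22104) had 2.02, 5.45 and 3.97 CPM at 0% and 6.48, 35.2 and 57.3 CPM at 100%, and SPX domain protein 6 (D1007_00679), of a family of phosphate sensors and chosen after its values were seen, had 374, 11.3 and 497 CPM at 0% and 20.6, 380 and 34.7 CPM at 100% and was not called (adjusted p = 0.71). For the latter 1 library in each group stood against the other 2. Potassium transport had 8 of 48 higher and 5 lower (5 and 5 with library size alone), and iron and zinc nutrition 5 and 4 of 42 (2 and 7 with library size alone). Shares were 16.7% and 10.4% for potassium and 11.9% and 9.52% for iron and zinc. Higher potassium genes numbered 4, 4, 4, 4, 3 and 5 without control leaves 1, 2 and 3 and 100% leaves 1, 2 and 3, left out in turn. With control leaves 1 and 3 and 100% leaves 1, 2 and 3 left out in turn, 1, 1, 2, 3 and 2 of the potassium genes were lower. Of the iron and zinc genes, 1, 3, 3, 1 and 2 were higher without control leaves 1, 2 and 3 and 100% leaves 1 and 2, left out in turn. The iron and zinc genes called lower came to 1, 2 and 2 without control leaf 3 and 100% leaves 1 and 3, left out in turn. Aquaporins, channels for water and small solutes, had 7 of 23 higher and 2 lower (6 and 5 with library size alone). The count of higher genes was 2 each with control leaves 1 and 3 left out in turn. PIP1-1 (D1007_47062), of the plasma membrane, rose from 296 ± 43.9 to 822 ± 310 CPM, and TIP4-2 (D1007_44128), of the vacuole, had 23.2, 81.9 and 174 CPM in the controls and 1.77, 1.41 and 3.44 CPM at 100% (-5.12 ± 0.70, adjusted p = 0.0014).

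Flavonoid synthesis had 7 of 22 genes higher and 1 lower (4 and 1 with library size alone). Phenylpropanoid and lignin synthesis had 11 of 61 higher and 7 lower. Without control leaves 1, 2 and 3 and 100% leaf 2, left out in turn, 2, 3, 2 and 4 of these flavonoid genes were higher. Lower phenylpropanoid genes numbered 4 without control leaf 3. Chalcone synthase 2 (D1007_34797), the entry to flavonoids, had 0.213, 0.641 and 0.852 CPM in the controls and 2.06, 13.6 and 7.56 CPM at 100%. Cinnamyl alcohol dehydrogenase 5 (D1007_35943), the last step to lignin monomers, rose from 30.2 ± 10.1 to 184 ± 28.5 CPM (2.87 ± 0.29, adjusted p = 0.00043), while a cinnamoyl-CoA reductase 1 at an assembled locus (scaffold SDOW01000368.1, 419825 to 608639, minus strand), the step before it, fell from 40.6 ± 2.59 to 9.66 ± 1.2 CPM (-1.82 ± 0.21, adjusted p = 0.00074). Among expansins and wall-remodelling enzymes 6 of 66 were higher and 11 lower (4 and 16 with library size alone). With control leaf 3 left out, 3 of the genes were higher. Of the genes, 7 and 6 were lower without control leaves 2 and 3, left out in turn. Core histones had 16 of 74 higher and 0 lower (13 and 1 with library size alone), with log2 changes of 1.32 to 7.82. The genes called higher came to 6, 3 and 7 without control leaves 1 and 3 and 100% leaf 3, left out in turn. Cyclins and replication proteins had 1 of 25 higher and 1 lower (1 and 2 with library size alone), and cyclin B1-1 (D1007_02971), of the entry into mitosis, fell from 62.3 ± 13.4 to 9.49 ± 3.64 CPM (-2.46 ± 0.32, adjusted p = 0.0011).

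Antioxidant enzymes had 10 of 33 higher and 2 lower (8 and 3 with library size alone), and thioredoxins and glutaredoxins 19 of 75 higher and 6 lower (14 and 9 with library size alone). The count of higher thioredoxins and glutaredoxins was 12 each with control leaves 1 and 3 left out in turn. Without control leaves 1, 2 and 3 and 100% leaf 1, left out in turn, 3 each of these thioredoxins and glutaredoxins were lower. Thioredoxin F (D1007_23917), which switches on Calvin cycle enzymes in the light, had 218, 137 and 184 CPM in the controls and 602, 815 and 1020 CPM at 100% (2.43 ± 0.28, adjusted p = 0.00069). Monodehydroascorbate reductase 3 (D1007_05052), which regenerates ascorbate, rose from 204 ± 15.3 to 480 ± 58.4 CPM, and catalase isozyme 1 (D1007_29061) fell from 104 ± 58.5 to 19.4 ± 3.76 CPM (-2.15 ± 0.37, adjusted p = 0.004).

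Pathogenesis-related proteins and chitinases had 8 of 74 genes higher and 4 lower (6 and 5 with library size alone). These shares, 10.8% and 5.41%, lay under the 13.0% and 9.98% of all genes. Higher genes of the list numbered 4, 3 and 14 without control leaves 1 and 3 and 100% leaf 3, left out in turn. With control leaves 2 and 3 and 100% leaves 1 and 2 left out in turn, 2, 1, 2 and 7 of the genes were lower. In 100% leaf 2, 16 of the 74 (21.6%) lay at least 4-fold above both other 100% leaves, against 2.21% of all genes. The 6 genes named for the largest spread at 100% were all annotated as pathogenesis-related proteins or as WIR1A. PRB1-2 (D1007_16576), a secreted protein made upon attack, had 1.55, 0.801 and 0.114 CPM in the controls and 0, 222 and 0 CPM at 100%. A WIR1A locus (scaffold SDOW01000154.1, 791931 to 793542, plus strand), of a membrane protein described from the response of wheat to mildew, had 0.0533, 0.16 and 0.0568 CPM at 0% and 0, 890 and 0 CPM at 100%. Both were thus near 0 in every library but 100% leaf 2. The fit gave the WIR1A locus an adjusted p of 0.034, and without 100% leaf 2 its log2 change was -3.74. Class III peroxidases, enzymes of the cell wall, summed to 269, 1550 and 253 CPM in the controls and 643, 683 and 509 CPM at 100%, so control leaf 2 stood apart. Disease resistance proteins had 19 of 202 higher and 26 lower (15 and 32 with library size alone), and receptor-like kinases 44 and 45 of 450 (34 and 58 with library size alone), against 13.0% and 9.98% of all genes. Of the disease resistance genes, 10 and 11 were higher without control leaves 1 and 3, left out in turn. The disease resistance genes called lower came to 13 without control leaf 3. The count of higher kinases was 15, 26, 14, 28 and 25 with control leaves 1, 2 and 3 and 100% leaves 1 and 2 left out in turn. Without control leaves 1 and 3, left out in turn, 29 and 17 of these kinases were lower. The cysteine-rich receptor-like kinase 10 (D1007_55971) had 164, 155 and 229 CPM in the controls and 7.37, 6.88 and 16.9 CPM at 100% (-3.87 ± 0.39, adjusted p = 0.00041).

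Leaves at 40% gave another reference for the same 100% libraries, which both comparisons share. Against 40%, 3730 genes (18.6%) were called, 2224 (11.1%) higher and 1506 (7.52%) lower. Leaving out a 40% library reduced the calls to 1501 (40% leaf 1), 2046 (40% leaf 2) or 1934 (40% leaf 3). Of the genes called against 0%, 1580 of the higher and 952 of the lower were also called in the same direction against 40%. Between 40% and 0% 2 genes (0.00998%) were called, 1 higher and 1 lower (0.00499% each). Separate ranges at 0 and 40% in a gene described above thus do not stand for a call between these rates. Against 40%, 12 of 12 early light-inducible proteins, 14 of 18 carotenoid genes, 12 of 26 photorespiration genes, 9 of 16 heat stress factors and 17 of 30 HSP70, HSP90 and HSP100 genes were higher. The Calvin cycle had 8 of 33 higher, and the photosystem list 6 higher and 11 lower of 57. WRKY factors had 5 of 52 higher against 40%, where their sum was 587 to 913 CPM.

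Fewer genes were called in roots of the same rates. In root 501 genes (2.08%) of 24046 were called between 100% and 0%, 228 (0.948%) higher and 273 (1.14%) lower, and the difference between the leaf and the root response was called for 3827 (15.9%), 2095 (8.71%) with the leaf change above the root's and 1732 (7.2%) with it below. Without root library 3 at 100% the count was 2440. Of the genes called higher in leaf 117 were also called higher in root, 29 were called lower there and 2451 were not called. Of those called lower in leaf 72 were called lower in root, 8 higher and 1920 not at all. A missing call in root does not show a different response, and the difference itself was called for 1434 and 1162 of the genes called in leaf and not in root. Heat shock genes were called higher in root too, 6 of the 16 small heat shock proteins and 12 of the 30 HSP70, HSP90 and HSP100 genes. None of the 18 carotenoid genes and none of the 52 WRKY genes were called in root, which is near the 2.08% of all genes called there. The leaf response lay above the root's for 7 and 22 of them, against 8.71% of all genes. Among the heat stress factors it did so for 8 of 16.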

How the data were processed

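The values used were raw read counts per locus, as deposited by the authors for 68630 loci in 18 libraries. TRIzol served for RNA extraction and the NEBNext Ultra kit for library preparation, per the labels' protocols. The submitters' processing notes list, with no role for any, DESeq2 1.20.0, featureCounts 1.5.0-p3, HISAT2 2.0.5, fastp and CASAVA 1.8. Mouse builds (mm10, GRCm38) are in the notes too, but every locus is on a scaffold of a barley assembly, whose positions are given here. Strand use and the counting of reads with several places are not given in the sources used here. Locus length, an other value (in bases) of the deposited table, was left unused. Genes carry the automatic annotations of the table, and 5073 loci assembled from reads are called by annotation and position.

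Leaf libraries held 16.5 to 19 M counts, and a count of 3 equalled 0.158 to 0.182 CPM in a leaf library. Genes were kept with filterByExpr (minimum count 10, minimum total 15). The 9 leaf libraries were fitted together, a mean per group, with the quasi-likelihood test of edgeR 4.0.16 (R 4.3.3), TMM factors and 6 residual degrees of freedom. P-values are 2-sided, with Benjamini-Hochberg adjustment across every tested gene and a threshold of 0.05. The leaf response minus the root response was tested on all 18 libraries (12 residual degrees of freedom). A log2 change divided by the square root of its F gave its SE. The spread that p-values measure is that between these libraries alone, and it may be technical. Levels are CPM of the library total, in the order of libraries 1, 2 and 3, or the mean ± SD of 3. Correlations and components used log2 CPM with a prior count of 2. The scripts were tested on simulated counts.

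Lists were found by words in a locus's name, or by protein domain for transcription factors, and are described by counts and medians with no set test. Members and lists were chosen with earlier results of these data known. For each list the rule named the called gene of smallest adjusted p in each direction, over all genes the 10 higher and 10 lower ones, each with separate groups and a mean of 5 CPM or more in the higher one, and for spread the 6 genes of largest SD within each group. Of these the text gives those that serve a description. A further 27 genes were picked with their values in view. Genes of the nitrogen lists were not described here, apart from those the rule named over all genes.

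The alternatives were RLE factors, library size alone, no filter, at least 5 CPM in 3 libraries, DESeq2 1.42.0, 1 fit of all 18 libraries, a fit of the 6 compared ones, a replicate block, a log2 change of at least 1, and leaving out each library in turn, with a prior count of 0.5 and omission of the 20 most abundant genes for the spread. Figures and sums were made with Python 3.11.15, pandas 2.3.3 and matplotlib 3.10.9.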

Additional observations from a re-analysis of the deposited data

Results flagged for a closer look

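Differences between the leaf and the root response stood out. They were called for 3827 genes, 2095 with the leaf change above the root's and 1732 with it below (edgeR quasi-likelihood test of the interaction, 15.9% of 24046 genes). Among the genes named over all genes, the leaf minus root log2 change was 7.40 for 5'-adenylylsulfate reductase 1 (D1007_25844), 5.01 for trichome birefringence-like 11 (D1007_43254), 4.37 for PDX1.1 (D1007_16752), 3.86 for GDP-L-galactose phosphorylase 2 (D1007_45697), 2.89 for the putative methionyl-tRNA synthetase D1007_56609, 2.56 for LOGL5 (D1007_47842), 2.39 for the 17.9 kDa heat shock protein locus (scaffold SDOW01000171.1, start 2011725) and 1.96 for the vacuolar-processing enzyme D1007_56610. For the last of these root rose too, from 30.5, 31.1 and 31.6 CPM to 131, 189 and 162 CPM, so both organs changed in 1 direction and by different amounts.

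On the other side the difference was -9.65 for the photosystem II 10 kDa locus (scaffold SDOW01000186.1, start 79336), which had 0 to 0.0593 CPM in the root controls and 0.253 to 1.1 CPM in root at 100%. It was -3.90 for purine permease 3 (D1007_47683), -3.28 for the SNF1-related kinase subunit D1007_16922, -3.11 for the DnaJ locus (scaffold SDOW01000185.1, start 1496940), -2.95 for the universal stress protein D1007_59885, -2.36 for sphingosine kinase 1 (D1007_33493), -2.00 for the glycosyl hydrolase D1007_19237, -1.68 for NPF8.3 (D1007_24918), -1.54 for succinate-semialdehyde dehydrogenase (D1007_06806) and -1.28 for PRR95 (D1007_25582). PRR95 was lower in root as well, at 101, 102 and 85.4 CPM in the controls and 44.5, 51.3 and 66 CPM at 100%.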

How the results depend on the processing

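The 4597 calls of 100% against 0% became 7396 with all 18 libraries in 1 fit and 2388 to 4353 with a library left out. Against 40% the 3730 calls became 5697 with DESeq2, 6700 with all 18 libraries and 1501 to 3489 with a library left out. The 3827 calls of leaf minus root became 2440 to 4525 with a library left out. Same-numbered libraries at 0 and 100% deviated from their group means with correlations of 0.12, -0.04 and 0.02, so the numbers are not taken to pair them. With the replicate number as a block, the calls were 3657, 2944 and 3384.

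Of 171 named genes 156 were called, and 129 kept their call and direction in every alternative run. Over 2378 pairs of a gene and an alternative 136 calls were lost, up to 27 of them without control leaf 3. Signs turned where 1 library held the level. With a library left out, the log2 change ranged from -3.74 to 12.43, -2.98 to 6.59 and -3.83 to 4.92 for the WIR1A loci of scaffold SDOW01000154.1 at 791931, 774859 and 1291403, from -6.83 to 7.49 and -3.44 to 12.86 for PRB1-2 (D1007_16576 and D1007_16579) and from -6.18 to 6.46 for pathogenesis-related protein 1 (D1007_61473), each lowest without 100% leaf 2. It ranged from -10.8 to 3.30 for polyamine oxidase 1 (D1007_40258) and from -1.36 to 4.14 for peroxidase 4 (D1007_49835), highest without control leaf 2, and the peroxidase also turned with the block (1.37). The cause was not tested. The median SD of log2 CPM was 0.36 in the controls and 0.50 at 100%, and 0.37 and 0.51 with a prior count of 0.5. A count of 3 was 0.158 to 0.182 CPM in a leaf library, and levels under it cannot be told from 0 at this depth.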

Other observations

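A small group of genes was called in opposite directions in leaf and root, 29 higher in leaf and lower in root and 8 the reverse, and the difference was called for each of these 37 genes. The 5 named here were chosen after their values were seen. Trehalose-phosphate synthase 11 (D1007_17317), of a family that shapes sugar signalling, had 368, 501 and 436 CPM in control leaves and 1150, 778 and 514 CPM in 100% leaves, and 515, 491 and 652 CPM in control roots and 267, 107 and 179 CPM in 100% roots. The leaf minus root log2 change was 2.83 (adjusted p = 0.0017). The leaf call of 100% against 0% was lost without control leaves 1 and 3 and 100% leaf 1, left out in turn (adjusted p = 0.093, 0.095 and 0.083). That leaf call was also lost with library size alone (adjusted p = 0.054), in a fit of the 6 compared libraries alone (adjusted p = 0.065) and without 40% leaf 1 (adjusted p = 0.054). Ferrochelatase-2 (D1007_34412), which puts iron into haem in plastids, had 135, 183 and 155 CPM and 250, 213 and 231 CPM in leaf, and 82.6, 79 and 71.8 CPM and 16, 22.3 and 15.9 CPM in root (3.00, adjusted p = 4.6e-05). Its leaf groups did not overlap and nor did its root groups. Its leaf call of 100% against 0% was lost without control leaves 1 and 3 and 100% leaves 1 and 3, left out in turn (adjusted p = 0.096, 0.099, 0.068 and 0.056). That leaf call was also lost with library size alone (adjusted p = 0.075), in a fit of the 6 compared libraries alone (adjusted p = 0.053) and without 40% leaf 1 (adjusted p = 0.054).

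Plastid sigma factor sigF (D1007_47863) was higher in leaf, with 79.7, 110 and 79 CPM at 0% and 206, 177 and 214 CPM at 100%, and at 1.82, 0.83 and 0.362 CPM against 0.127, 0.137 and 0 CPM in root, near the floor of 3 counts (4.88, adjusted p = 0.00062). Metal tolerance protein 4 (D1007_24938), of a family that moves manganese and zinc out of the cytosol, went down in leaf from 99, 158 and 111 CPM to 10.5, 19.5 and 43.5 CPM and up in root from 4.85, 7.83 and 7.55 CPM to 60.1, 20.4 and 37.7 CPM (-4.52, adjusted p = 0.00063). Starch branching enzyme 2 (D1007_08002) had 127, 116 and 160 CPM at 0% and 43, 88.2 and 52.2 CPM at 100% in leaf, and 6.04, 5.87 and 3.74 CPM and 16.9, 20.6 and 19.2 CPM in root (-2.66, adjusted p = 0.00035). Its leaf call of 100% against 0% was lost without control leaves 1 and 3 and 100% leaves 1 and 3, left out in turn (adjusted p = 0.075, 0.11, 0.09 and 0.091). That leaf call was also lost with the replicate number as a block (adjusted p = 0.054) and in a fit of the 6 compared libraries alone (adjusted p = 0.083). It was lost too without 40% leaf 1 (adjusted p = 0.059), without 40% leaf 2 (adjusted p = 0.055) and without 40% leaf 3 (adjusted p = 0.051). None of the groups of these genes overlapped within an organ.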
